A study of Mus musculus with 21 samples.

Results

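The genes described here are 9 that link calcium to transcription: the calmodulin genes Calm2 and Calm3, the calcium/calmodulin-dependent kinase genes Camk2a, Camk2b, Camk2d, Camk2g and Camk4, and the CREB family genes Creb1 and Crem. They were taken by gene symbol from a table of read counts, and 9 of 9 were found among its 21878 lines and passed the filter on low counts that left 14968 genes for testing. The libraries came from spiral ganglion neurons, the cells that connect the hair cells of the ear with the brainstem, of mice at postnatal day 7. Each of the 21 libraries pooled about 50 neurons drawn with a micropipette and was made with Smart-seq2, a full-length method that primes at the poly(A) tail. All animals carried an adeno-associated virus (AAV).

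The DN-HCN2 groups (base, n = 3, and apex, n = 4) received a site-mutated HCN2, labelled dominant-negative. The truncated SK3 groups (base, n = 3, and apex, n = 3) received a truncated SK3, which the labels also call dominant-negative. The control groups (base, n = 4, and apex, n = 4) received EGFP and carry the genotype label WT. Base and apex are the high-frequency and low-frequency ends of the cochlea. The HCN2 channel opens on hyperpolarization and passes cations, and SK3 passes potassium when calcium acts on the calmodulin bound to it. The promoter that drove each insert, the strain, the age at injection and the share of collected neurons that were transduced are not given in the sources used here. The labels call the libraries biological replicates without saying which animals they came from, so p-values measure the spread between these libraries.

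When calcium enters a neuron it binds calmodulin, which then activates the CaM kinases. CaMKII is an enzyme of many subunits encoded by Camk2a, Camk2b, Camk2d and Camk2g and acts at synapses and in the cytosol, while CaMKIV, encoded by Camk4, acts largely in the nucleus and phosphorylates CREB. CREB binds the cAMP response element (CRE) in promoters and recruits coactivators, and CREM, encoded by Crem, includes isoforms that activate and isoforms that repress the same element. In cultured spiral ganglion neurons of the rat, depolarization is known to support survival in part through CaM kinases and CREB.

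Library totals lay between 10411634 and 15138780 counts. Levels are CPM, read counts scaled to a common library total after TMM normalization, and a gene was called at an edgeR adjusted p (Benjamini-Hochberg over all genes tested) under 0.05. The 13 markers of spiral ganglion neurons, among them Tubb3, Nefl and Snap25, were measured in every group and summed to 8738 to 16585 CPM in DN-HCN2 base, 12526 to 17792 in DN-HCN2 apex, 11518 to 16596 under truncated SK3 and 12388 to 15373 in control. The sums of 14 Schwann and satellite glia markers were as large, with 12695 ± 3244 CPM in DN-HCN2 base (SD, n = 3) against 21903 ± 5371 CPM in control base (n = 4). The 13 macrophage markers stood apart in 2 libraries, DN-HCN2 base replicates 2 and 3, at 1682 and 1079 CPM, where replicate 1 had 26.1 CPM and no library of another group passed 445 CPM. The 11 supporting cell and otic epithelium markers summed to 195 to 2359 CPM in DN-HCN2 base against 46.6 to 371 in control base, and to 757 to 10381 CPM in DN-HCN2 apex against 481 to 2254 in control apex. The 6 endothelium and blood markers summed to 733 to 2327 CPM in DN-HCN2 base against 13.9 to 941 in control base, and to 20.8 to 1772 CPM in DN-HCN2 apex against 8.34 to 333 in control apex. Both lists had higher means with DN-HCN2 in each region, with overlap between libraries, and their part in the differences with DN-HCN2 was not tested. This was not particular to DN-HCN2. In truncated SK3 base and apex the endothelium and blood markers averaged 2268 ± 1562 and 1441 ± 2130 CPM, against 403 and 128 in control. The supporting cell markers averaged 244 ± 187 and 3148 ± 1185 CPM there, against 239 and 1033 in control. Counts of Hcn2 (28.7 ± 6.68 CPM in DN-HCN2 base and 62.2 ± 48.6 in DN-HCN2 apex, against 61.7 ± 36.6 in control base and 29.02 ± 11.3 in control apex) did not separate the groups. Kcnn3, which encodes SK3, was near 0 in every group (0.262 ± 0.200 CPM in truncated SK3 base and 1.03 ± 0.973 in truncated SK3 apex, against 0.837 ± 0.663 in control base and 0.155 ± 0.199 in control apex). The construct labels could therefore not be checked against either gene. In samples of pooled cells, fewer cells of a type and less RNA per cell cannot be told apart.

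Creb1, which encodes the CREB factor that CaM kinases and protein kinase A phosphorylate, was the 1 member of 9 called with DN-HCN2 over both regions, and it was lower. Among all genes tested, 3.61% were called lower in that comparison and 6.05% in either direction. edgeR called 0 of 9 members in each of the other 9 comparisons. The shares of all genes called there, in either direction, were 0.2% with DN-HCN2 in the apex, 2.14% with DN-HCN2 in the base, 0.735% with truncated SK3 over both regions, 0.254% and 0.147% with truncated SK3 in the apex and in the base, 0.655% between the constructs, 0% between base and apex of control, and 0.00668% and 0% for the region by construct interactions of DN-HCN2 and truncated SK3. At an unadjusted edgeR p under 0.05 there were 3 members with DN-HCN2 over both regions beside 22% of all genes, 3 in the apex beside 11.9%, 1 in the base beside 18.5%, 1 between the constructs beside 14.5% and 1 between base and apex of control beside 4.82%. There were 0 with truncated SK3 over both regions, in the apex and in the base, beside 10.3%, 8.51% and 5.51%, and 0 for the interactions of DN-HCN2 and truncated SK3, beside 6.85% and 3.64%. DESeq2 called Creb1 over both regions and in the base with DN-HCN2, and 0 members in the other comparisons. It called more genes than edgeR did. Of the 14968 genes, DESeq2 called 810 higher and 851 lower over both regions, where edgeR called 366 and 540. In the base DESeq2 called 543 higher and 558 lower, where edgeR called 126 and 194.

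The gene lies at chr1:64532645-64604548 on the plus strand (GRCm38, GENCODE M21) and has a longest transcript of 8364 bases, which shares no stretch of 50 bases with that of any other gene. Its promoter is shown because Creb1 is the called member, beside that of Calm3, a highly expressed member with few differences between groups. Both are RefSeq sequences (GRCm38.p6), 250 bases before to 50 after the transcript start, on the gene's own strand, at chr1:64532554-64532853 (plus strand) for Creb1 and chr7:16923983-16924282 (minus strand) for Calm3. Capitals mark the GC box GGGCGG and the CRE half-site TGACG, searched on both strands.
Creb1: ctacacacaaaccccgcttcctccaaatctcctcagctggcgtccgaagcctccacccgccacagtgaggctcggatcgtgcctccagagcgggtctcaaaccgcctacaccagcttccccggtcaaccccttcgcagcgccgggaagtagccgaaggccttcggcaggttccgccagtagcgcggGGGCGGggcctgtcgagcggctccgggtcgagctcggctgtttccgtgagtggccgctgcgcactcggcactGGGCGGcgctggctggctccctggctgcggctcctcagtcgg
Calm3: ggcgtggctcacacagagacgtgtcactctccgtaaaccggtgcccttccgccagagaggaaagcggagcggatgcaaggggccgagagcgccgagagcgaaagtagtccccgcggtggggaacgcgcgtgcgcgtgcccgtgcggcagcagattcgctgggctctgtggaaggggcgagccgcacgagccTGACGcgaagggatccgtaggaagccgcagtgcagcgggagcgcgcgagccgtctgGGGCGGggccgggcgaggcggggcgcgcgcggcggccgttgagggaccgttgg

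Creb1 held 2 GC boxes and no CRE half-site in this window, and Calm3 held 1 of each. Of 32851 mouse promoters of the same length outside chromosome 18, 35.7% held a GC box, 20.8% a half-site and 1.79% the full CRE, TGACGTCA, which contains the half-site. The promoter table matched 4 of the 9 members (Calm3, Camk2b, Camk2d and Creb1), and all 4 held a GC box while none held the full CRE. A match describes these letters only.

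Creb1 had 19.95, 15.9 and 7.71 CPM in DN-HCN2 base, against 42.2, 28.4, 44.0 and 26.9 CPM in control base. In DN-HCN2 apex it had 17.6, 10.3, 26.5 and 23.9 CPM, against 36.3, 33.7, 24.9 and 45.9 CPM in control apex. All 3 DN-HCN2 base libraries lay below all 4 of control base, as did those of 9.03% of all genes tested, while in the apex the highest DN-HCN2 library lay above the lowest control library. Over both regions Creb1 changed by -1.06 (SE 0.239) on the log2 scale, a DN-HCN2 to control ratio of 0.479 (95% interval 0.339 to 0.676; edgeR adjusted p = 0.0121). In the base the log2 change was -1.28 (SE 0.356, edgeR adjusted p = 0.0607), while the apex gave -0.85 (SE 0.32, edgeR adjusted p = 0.31). Their difference, base minus apex, was -0.43 (SE 0.469, edgeR adjusted p = 0.914), and no difference between the regions was detectable.

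The Creb1 call rested on depths of 84 to 320 counts per library under DN-HCN2 and 368 to 661 in control. It was kept in each of the 15 fits that left out a library, at log2 changes between -1.218 and -0.9093 (edgeR adjusted p between 0.00608 and 0.0306). It was lost without the pair of libraries rich in macrophage markers, where 1 library stood for DN-HCN2 base and was assumed to vary like the other groups (log2 change -0.83, edgeR adjusted p = 0.131), and when each library was corrected for GC content and length (-0.71, edgeR adjusted p = 0.0547). In both cases the value stayed below 0, and the libraries rich in macrophage markers had 15.9 and 7.71 CPM against 19.95 CPM in the remaining DN-HCN2 base library.

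**Figure D1:**
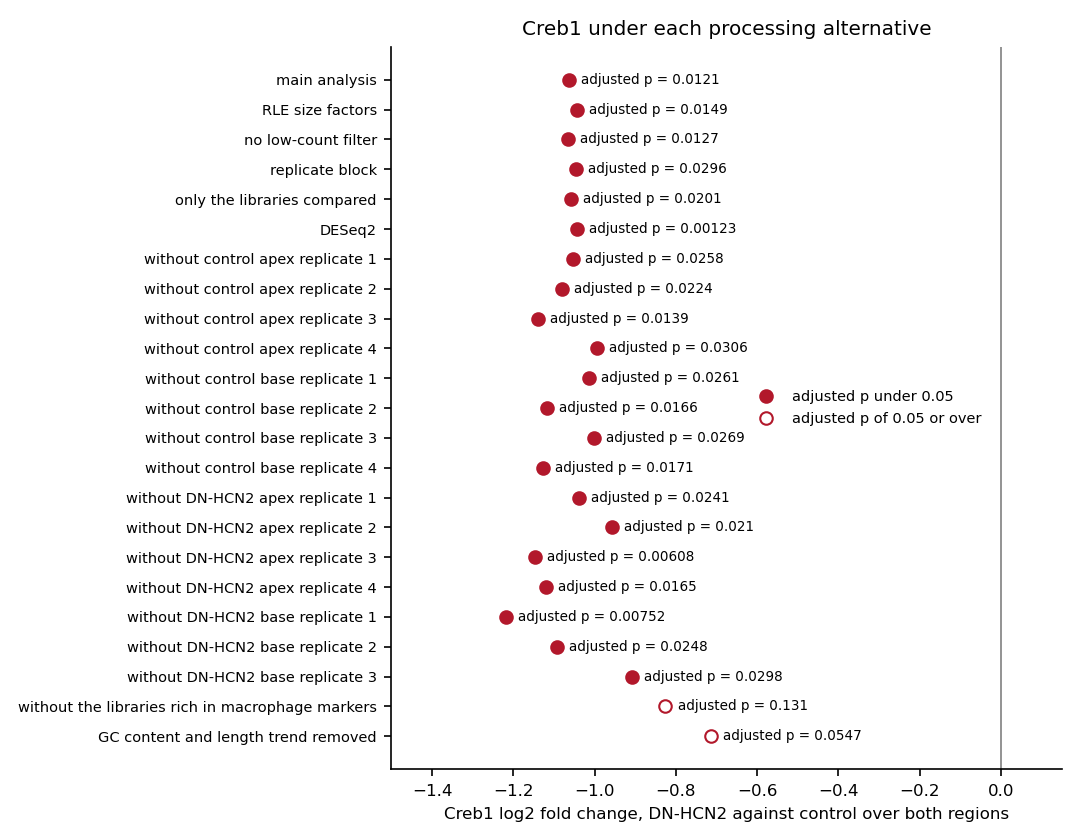
Creb1 log2 fold change of DN-HCN2 against control over both regions (horizontal axis) under each way of processing (vertical axis), with the adjusted p beside each point; filled points are under 0.05. Values run from -1.218 to -0.7148, all below 0, and the open points are the analysis without the libraries rich in macrophage markers and the one with the GC content and length trend removed.

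With truncated SK3, Creb1 had 19.2, 23.5 and 34.9 CPM in the base and 24.7, 29.0 and 26.3 CPM in the apex. These libraries overlapped control in both regions and also the higher DN-HCN2 libraries. The log2 change against control over both regions came to -0.43 (SE 0.244, 95% interval -0.93 to 0.08, edgeR adjusted p = 0.584). Set directly against truncated SK3, DN-HCN2 differed by -0.64 (SE 0.252, edgeR adjusted p = 0.24; unadjusted p = 0.0195), which missed the threshold. The 2 construct comparisons share their control libraries.

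From lowest to highest, the mean Creb1 level was 14.5 ± 6.24 CPM (SD, n = 3) in DN-HCN2 base, 19.6 ± 7.25 (n = 4) in DN-HCN2 apex, 25.9 ± 8.14 (n = 3) in truncated SK3 base, 26.7 ± 2.17 (n = 3) in truncated SK3 apex, 35.2 ± 8.64 (n = 4) in control apex and 35.4 ± 8.96 in control base (n = 4). Each step between neighbours in that order was within the larger SD of the pair. Control base and apex were almost level, with a log2 difference, base minus apex, of 0.01 (SE 0.317, edgeR adjusted p = 1).

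**Figure D2:**
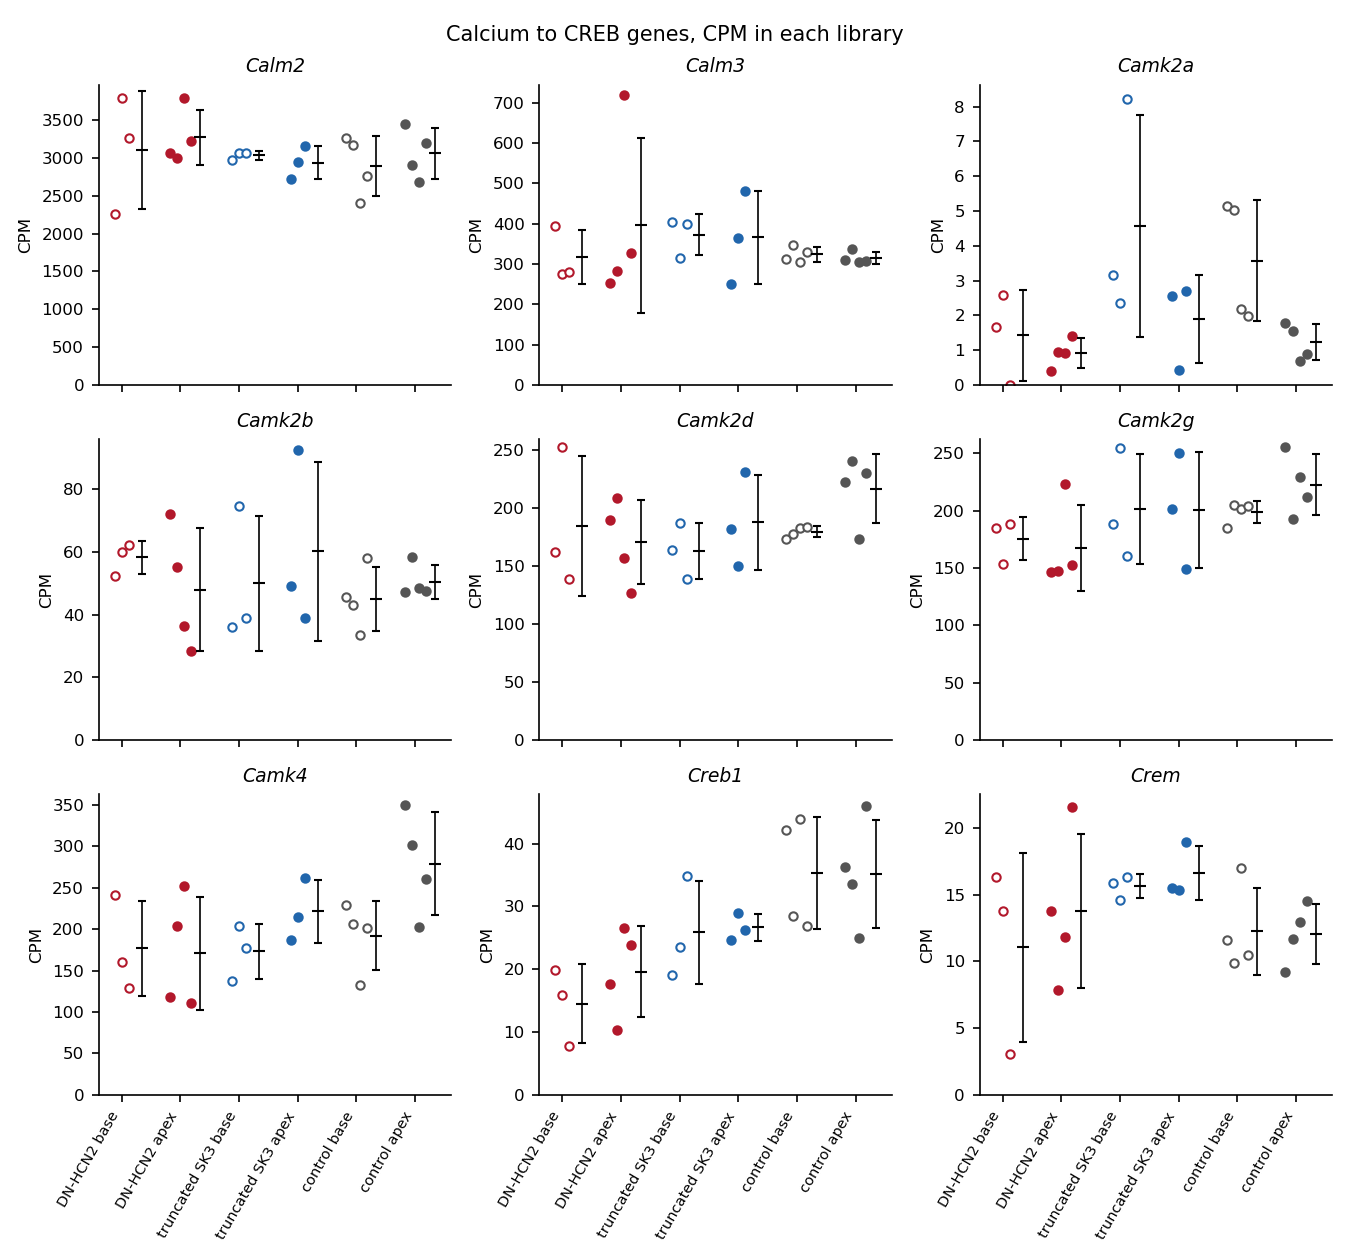
CPM of each of the 9 genes (vertical axis, from 0) in every library of the 6 groups (horizontal axis); filled points are apex, open points base, and the bar is the mean with its SD, cut at 0. Creb1 is lowest in DN-HCN2 base, where all 3 libraries lie below the 4 of control base, while the calmodulin genes overlap between groups.

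Crem, whose protein binds the same element, had 16.3, 13.8 and 3.03 CPM in DN-HCN2 base, against 11.6, 9.89, 17.0 and 10.5 CPM in control base. In DN-HCN2 apex it had 13.8, 7.82, 11.9 and 21.6 CPM, against 9.21, 11.7, 12.9 and 14.5 CPM in control apex. The groups overlapped, and the library lowest in Crem, DN-HCN2 base replicate 3, was also the lowest in Creb1. The log2 change over both regions came to 0.02 (SE 0.293, 95% interval -0.59 to 0.63, edgeR adjusted p = 0.983).

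With truncated SK3, Crem had 15.9, 14.6 and 16.3 CPM in the base and 15.5, 15.4 and 18.9 CPM in the apex. The apex libraries lay above all 4 of control apex, as did those of 5.02% of all genes tested, and the base libraries overlapped control base. Over both regions the log2 change was 0.40 (SE 0.303, edgeR adjusted p = 0.711). Crem lies at chr18:3266048-3337748, and its activating and repressing isoforms were not separated in the counts per gene.

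Per kilobase of the longest transcript, which corrects for length, Creb1 and Crem were near each other, at 3.20 ± 1.22 and 4.59 ± 1.39 CPM per kb (SD, n = 21). Dividing by all exonic bases gave 1.95 and 2.28 CPM per kb for Creb1 and Crem. The size of the shares that follow, taken with the longest transcript, therefore depends on the length used. Creb1 made up 35.3% ± 10.3 (SD, n = 3) of the sum of both in DN-HCN2 base and 33.6% ± 7.08 (n = 4) in DN-HCN2 apex. In truncated SK3 base and apex it made up 36.2% ± 6.56 (n = 3) and 36.1% ± 3.56 (n = 3), against 50.3% ± 4.07 (n = 4) in control base and 50.3% ± 7.40 (n = 4) in control apex. The mean share was lower under both constructs than in control, and the DN-HCN2 libraries overlapped control in the apex (up to 43.95% and down to 40.3%). In the base the DN-HCN2 libraries reached 47.1%, just under the lowest of control base at 47.3%. The truncated SK3 libraries reached 42.8% in the base and 39.8% in the apex, below all control libraries of the same region. The difference in this share was not tested, and how many other pairs of genes separate in this way was not counted. Neither Creb1 nor Crem was called with truncated SK3.

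Camk4 encodes CaMKIV, the nuclear kinase upstream of CREB, and lies at chr18:32934931-33191228. It had 240.6, 159.9 and 129.4 CPM in DN-HCN2 base, against 228.8, 205.9, 132.0 and 200.9 CPM in control base. In DN-HCN2 apex it had 118.4, 203.5, 251.4 and 110.3 CPM, against 350.1, 301.1, 203.1 and 260.9 CPM in control apex. Values overlapped in both regions, and replicates 1 and 4 of DN-HCN2 apex were below every control library. Its log2 change came to -0.41 over both regions (SE 0.191, edgeR adjusted p = 0.21); in the apex it was -0.71 (SE 0.259, edgeR adjusted p = 0.291).

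Truncated SK3 gave Camk4 levels of 173.2 ± 33.4 CPM in the base and 221.3 ± 37.9 CPM in the apex (SD, n = 3 each), which is -0.24 on the log2 scale over both regions (SE 0.198, edgeR adjusted p = 0.751). In control, Camk4 had a base minus apex difference of -0.54 on the log2 scale (SE 0.258), at an unadjusted p of 0.0496 and an edgeR adjusted p of 1. Averaged over the 3 conditions, the base minus apex difference of Camk4 was -0.28 (edgeR adjusted p = 0.445). The order of the 6 means ran from 170.9 ± 68.2 CPM (n = 4) in DN-HCN2 apex to 278.8 ± 62.3 CPM (n = 4) in control apex, and no neighbours in it differed beyond the larger SD of the pair.

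The 4 CaMKII genes differed widely in level, and none of them was called in any comparison. Per kilobase, Camk2g was the highest at 52.5 ± 9.47 CPM per kb, followed by Camk2d at 33.4 ± 6.38, Camk2b at 12.5 ± 3.74 and Camk2a at 0.446 ± 0.388 (SD, n = 21 each). Camk2g and Camk2d encode the gamma and delta subunits, which many tissues make, and Camk2a and Camk2b the alpha and beta subunits, which dominate in the forebrain. Of the CaMKII transcripts, gamma made up 53.1% ± 5.88, delta 33.9% ± 5.56, beta 12.5% ± 3.10 and alpha 0.474% (SD, n = 21, except alpha, which ranged from 0% to 2.08% over libraries). Dividing by all exonic bases of a gene in place of its longest transcript gave 68.0%, 18.6%, 12.6% and 0.701%, so the order of gamma, delta and beta held and the gap between gamma and delta depended on the length used.

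**Figure D3:**
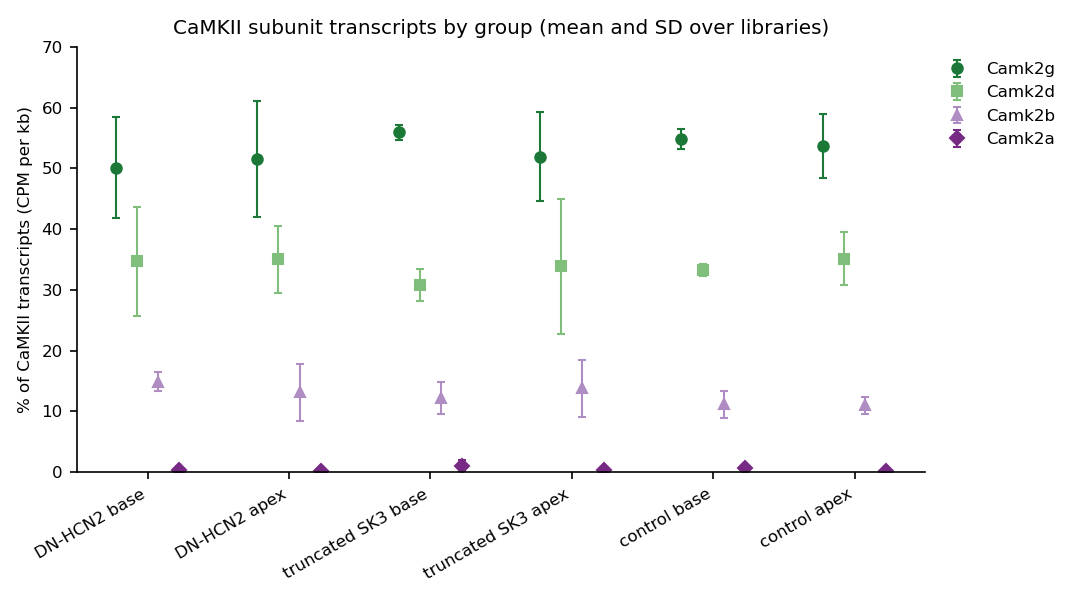
Percent of CaMKII transcripts (CPM per kb of the longest transcript, vertical axis) that came from each subunit gene in the 6 groups (horizontal axis), as mean and SD over libraries, with the SD cut at 0. Camk2g was the largest in every group, between 50.2% in DN-HCN2 base and 55.9% in truncated SK3 base, and Camk2a stayed at or under 1.06%.

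Camk2g (chr14:20734875-20794088) had 185.0, 153.6 and 188.0 CPM in DN-HCN2 base, against 184.4, 205.0, 201.7 and 204.2 CPM in control base. In DN-HCN2 apex it had 146.0, 147.4, 223.4 and 152.4 CPM, against 255.7, 193.0, 229.1 and 211.5 CPM in control apex. In the apex 3 of the 4 DN-HCN2 libraries were below every control library and replicate 3 lay within the control range. Its log2 change came to -0.30 over both regions (SE 0.131, edgeR adjusted p = 0.188); in the apex it was -0.41 (SE 0.177, edgeR adjusted p = 0.373), and it was -0.07 with truncated SK3 (SE 0.135, edgeR adjusted p = 0.933). Creb1, Camk2g and Camk4 were the 3 members with an unadjusted edgeR p under 0.05 for DN-HCN2 over both regions, and 22% of all genes tested had one.

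Camk2d (chr3:126596302-126846326) averaged 184.4 ± 60.3 CPM in DN-HCN2 base (SD, n = 3) and 170.3 ± 36.2 in DN-HCN2 apex (n = 4), against 179.4 ± 4.76 and 216.7 ± 29.6 (n = 4 each) in control base and apex. Its log2 change over both regions came to -0.15 with DN-HCN2 (SE 0.14, 95% interval -0.45 to 0.14, edgeR adjusted p = 0.569) and -0.17 with truncated SK3 (SE 0.146, edgeR adjusted p = 0.759). The control base libraries lay close together, between 173.5 and 184.0 CPM, and those of DN-HCN2 base spread from 138.5 to 252.6 CPM on either side of them.

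Camk2b (chr11:5969644-6066362) averaged 58.3 ± 5.22 CPM in DN-HCN2 base and 48.0 ± 19.7 in DN-HCN2 apex, against 45.1 ± 10.2 in control base and 50.4 ± 5.37 in control apex. The log2 changes over both regions were 0.15 with DN-HCN2 (SE 0.22, 95% interval -0.31 to 0.61, edgeR adjusted p = 0.74) and 0.20 with truncated SK3 (SE 0.228, edgeR adjusted p = 0.841). In truncated SK3 apex the libraries ran from 39.0 to 92.7 CPM, the widest range of the 6 groups for this gene.

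Camk2a (chr18:60925618-60988152), the alpha subunit gene, was near the limit of detection, at 0 to 85 counts per library, and 15.9% of tested genes had a lower mean level. It had 1.67, 2.59 and 0 CPM in DN-HCN2 base, and the 0 allows up to 0.275 CPM (3 counts; counting error only). Control base had 5.14, 5.02, 2.17 and 1.97 CPM and control apex 1.78, 1.54, 0.678 and 0.903 CPM, so the base libraries lay above the apex ones, as did those of 2.64% of all genes tested. The log2 difference, base minus apex, was 1.54 (SE 1.00, edgeR adjusted p = 1).

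The 7 oligodendrocyte markers also summed higher in control base, at 818 to 3542 CPM against 639 to 1046 CPM in control apex, and their part in the Camk2a difference was not tested. Over both regions the log2 change of Camk2a was -0.87 with DN-HCN2 (SE 0.737, edgeR adjusted p = 0.537) and 0.49 with truncated SK3 (SE 0.745, edgeR adjusted p = 0.902). The 95% intervals of both, -2.40 to 0.67 and -1.06 to 2.04, run from a ratio of 0.189 to 1.59 with DN-HCN2 and of 0.479 to 4.11 with truncated SK3, so no difference was detectable at this depth.

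The calmodulin genes were the highest of the 9. Calm2 (chr17:87433412-87446935) reached 2535 ± 314 CPM per kb (SD, n = 21), more than 99.9% of tested genes in mean CPM, and Calm3 (chr7:16915379-16924114) 152 ± 44.3 CPM per kb. Both encode the same calmodulin protein. Of the 50-base stretches in the longest transcript, 12.7% in Calm2 and 2.77% in Calm3 also occur in other annotated genes, none of them in the table, and how the authors' counting treated such reads is not given in the sources used here.

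Calm2 averaged 3107 ± 780 CPM in DN-HCN2 base (n = 3) and 3272 ± 361 in DN-HCN2 apex (n = 4), 3032 ± 57.3 and 2937 ± 216 (n = 3 each) in truncated SK3 base and apex, and 2897 ± 396 and 3059 ± 336 (n = 4 each) in control base and apex. The highest of these means was 1.13 times the lowest, and no neighbours in the order differed beyond their SD. The log2 changes over both regions were 0.10 with DN-HCN2 (SE 0.104, 95% interval -0.12 to 0.32, edgeR adjusted p = 0.632) and 0.00 with truncated SK3 (SE 0.108, 95% interval -0.22 to 0.23, edgeR adjusted p = 1).

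Calm3 averaged 317.4 ± 67.6 CPM in DN-HCN2 base (n = 3) and 396.0 ± 217 in DN-HCN2 apex (n = 4), against 324.2 ± 18.7 and 315.0 ± 15.2 CPM (n = 4 each) in control base and apex. The wide SD in DN-HCN2 apex came from replicate 3, at 718.6 CPM, where the others had 253.5 to 328.5 CPM. The log2 changes over both regions were 0.15 with DN-HCN2 (SE 0.185, 95% interval -0.23 to 0.53, edgeR adjusted p = 0.689) and 0.21 with truncated SK3 (SE 0.191, edgeR adjusted p = 0.781). Calm3 made up 5.48% ± 2.57 of the Calm2 and Calm3 transcripts per kilobase in DN-HCN2 base and 5.76% ± 2.23 in DN-HCN2 apex, against 5.62% ± 0.628 in control base and 5.18% ± 0.617 in control apex.

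**Figure D4:**
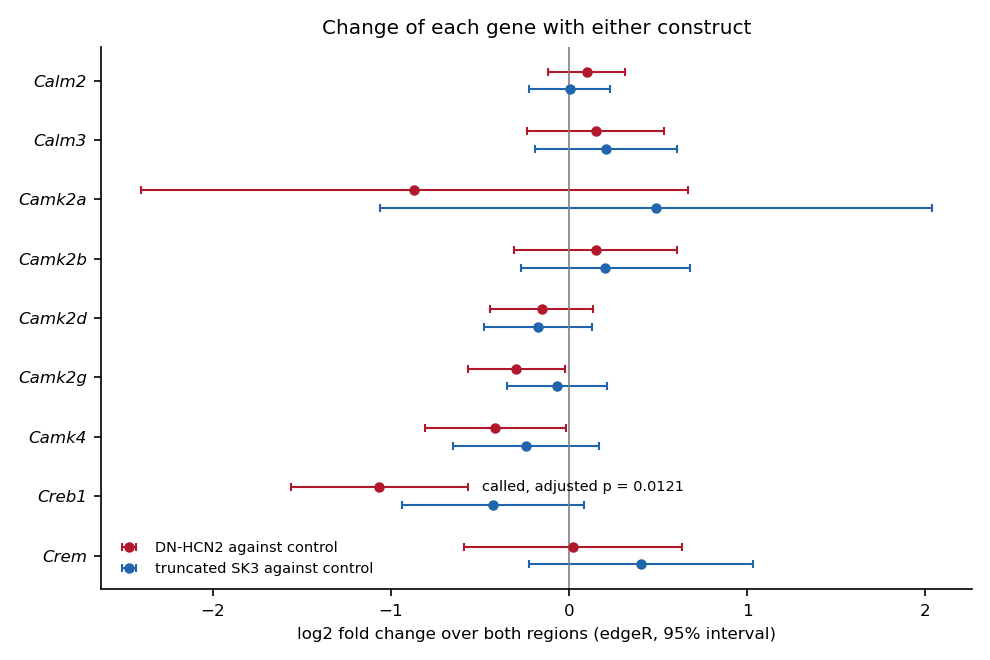
Log2 fold change over both regions (horizontal axis) of each of the 9 genes (vertical axis) with DN-HCN2 and with truncated SK3 against control, with edgeR 95% intervals. The interval of Creb1 with DN-HCN2, -1.56 to -0.57, is the farthest from 0, and that of Camk2a is the widest; the control libraries are shared by both comparisons.

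Taking the 9 together, 5 had a negative and 4 a positive log2 change with DN-HCN2 over both regions, with a median of -0.15, beside 47.5% negative and a median of 0.03 over all genes tested. With truncated SK3, 4 were negative and 5 positive, with a median of 0.00 beside 0.01. Between group means the ratio of highest to lowest was 4.98 for Camk2a, whose counts were few, 2.43 for Creb1, 1.63 for Camk4, 1.501 for Crem, 1.34 for Camk2b, 1.33 for Camk2d and Camk2g and 1.26 for Calm3.

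The genes whose pattern over the 21 libraries was most like that of Creb1 were Ccdc186, Arhgef7 and Usp47. Likeness was the root mean square difference of centred log2(CPM + 1), and it came to 0.344, 0.35 and 0.354 for these, against a median of 0.704 over the 9944 genes that averaged 10 CPM or more. Ccdc186 averaged 26.6 ± 15.8 CPM in DN-HCN2 base (n = 3) and 34.1 ± 16.7 in DN-HCN2 apex (n = 4), against 47.7 ± 4.90 and 42.8 ± 6.68 CPM (n = 4 each) in control base and apex, and was not called (log2 change -0.58, SE 0.237, edgeR adjusted p = 0.147). Usp47, which encodes a deubiquitinating enzyme, averaged 35.2 ± 13.4 CPM in DN-HCN2 base (n = 3) and 43.8 ± 12.0 in DN-HCN2 apex (n = 4), against 68.3 ± 10.3 and 64.8 ± 6.94 CPM (n = 4 each) in control base and apex. Arhgef7, a guanine nucleotide exchange factor gene, averaged 36.7 ± 11.5 and 51.7 ± 16.4 CPM in DN-HCN2 base and apex, against 67.5 ± 11.3 and 76.6 ± 3.64 CPM in control base and apex. Usp47 and Arhgef7 were called with DN-HCN2 over both regions (edgeR adjusted p = 0.0105 and 0.0141). All 3 genes were picked for following Creb1 in these same libraries, so their lower means with DN-HCN2 come with that choice. The libraries also share their depth and makeup across genes, so likeness here is a description.

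Around the 9 members, 69 other genes of the pathway were described in 7 groups, of which 68 were tested and Nrgn was not. With DN-HCN2 over both regions 6 of the 68 were called, 4 higher and 2 lower, which is 8.82% beside 6.05% of all genes tested. With truncated SK3 over both regions 1 was called, 1.47% beside 0.735% of all genes. None of the 7 other CaM kinase genes, the 5 tested CaMKII inhibitors and calmodulin-binding proteins, the 7 calcineurin genes or the 5 CREB coactivator genes was called with either construct over both regions.

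Among 14 genes of other kinases that phosphorylate CREB, 3 were called with DN-HCN2 over both regions, beside 6.05% of all genes tested. Over both regions none was called with truncated SK3 or between the constructs, beside 0.735% and 0.655% of all genes. Rps6ka2, which encodes the ribosomal S6 kinase RSK3, had 30.9, 37.3 and 19.1 CPM in DN-HCN2 base, against 72.9, 71.8, 96.5 and 81.5 CPM in control base. In DN-HCN2 apex it had 32.9, 44.3, 51.8 and 61.3 CPM, against 82.7, 82.8, 97.4 and 99.1 CPM in control apex. No DN-HCN2 library reached a control library in either region, as for 0.995% of all genes tested, and the log2 change over both regions came to -1.20 (SE 0.216, edgeR adjusted p = 0.00269). With truncated SK3, Rps6ka2 averaged 52.3 ± 28.8 CPM in the base and 53.5 ± 18.7 in the apex (n = 3 each). These means were also below those of control, 80.7 and 90.5 CPM. Its paralog Rps6ka1, encoding RSK1, went the other way, at 56.8, 47.8 and 85.9 CPM in DN-HCN2 base, against 26.4, 26.4, 17.4 and 24.9 CPM in control base. It averaged 39.3 ± 13.0 CPM in DN-HCN2 apex and 25.5 ± 3.92 in control apex (SD, n = 4 each), where the groups overlapped, and the log2 change over both regions came to 1.02 (SE 0.214, edgeR adjusted p = 0.0080). With truncated SK3, Rps6ka1 averaged 38.8 ± 12.4 CPM in the apex and 17.6 ± 5.84 in the base (n = 3 each). Prkacb, a catalytic subunit gene of protein kinase A, averaged 123.8 ± 26.4 CPM in DN-HCN2 base (n = 3) and 134.4 ± 18.6 in DN-HCN2 apex (n = 4), against 170.2 ± 15.4 and 203.7 ± 30.4 CPM (n = 4 each) in control base and apex. It fell by 0.53 on the log2 scale over both regions (SE 0.124, edgeR adjusted p = 0.016). In truncated SK3 base and apex Prkacb averaged 172.1 ± 41.3 and 156.4 ± 12.3 CPM (n = 3 each). All 3 calls were kept in each fit that left out a library and without the libraries rich in macrophage markers.

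**Figure D5:**
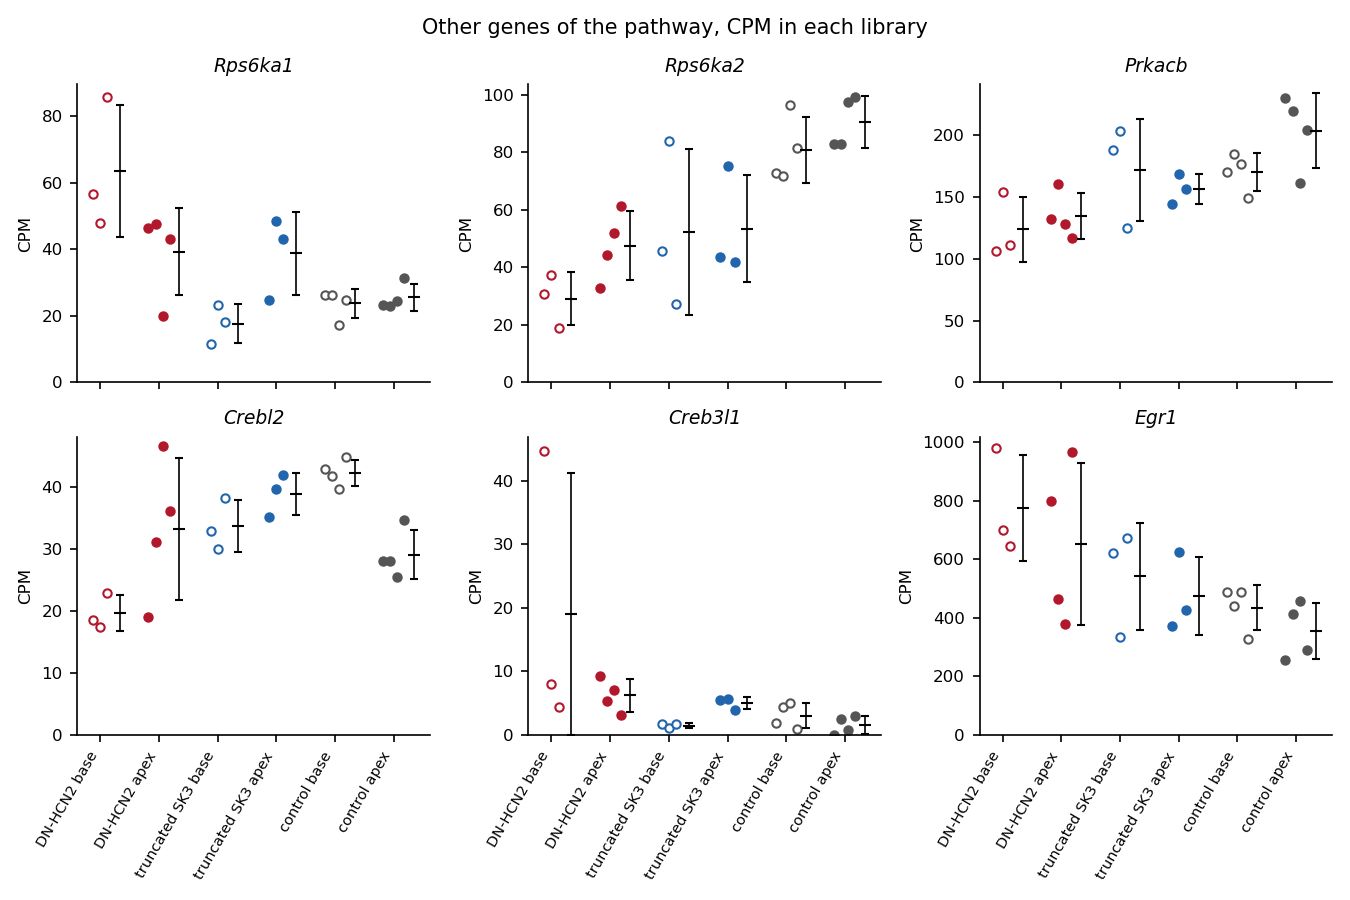
CPM (vertical axis, from 0) of 6 other genes of the pathway in every library of the 6 groups (horizontal axis), with mean and SD cut at 0; filled points are apex and open points base. Rps6ka2 lies below and Rps6ka1 mostly above control in the DN-HCN2 libraries, and Creb3l1 has 1 library, at 44.7 CPM, far above the rest.

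Among other CREB and ATF factors, Creb3l1, a membrane-bound factor of the endoplasmic reticulum, was called with DN-HCN2 over both regions (log2 change 2.31, SE 0.655, edgeR adjusted p = 0.0411). It had 44.7, 7.97 and 4.31 CPM in DN-HCN2 base, against 0.915 to 4.95 CPM in control base, and the call was kept in 7 of the 15 fits that left out a library. Without the library at 44.7 CPM the log2 change was 1.49 (edgeR adjusted p = 0.186). The call was also lost with the replicate block (edgeR adjusted p = 0.136), with only the libraries compared (edgeR adjusted p = 0.0577) and with the GC content and length trend removed (edgeR adjusted p = 0.0596). In the apex Creb3l1 averaged 6.21 ± 2.63 CPM with DN-HCN2 and 5.00 ± 0.984 with truncated SK3, against 1.57 ± 1.43 in control. In truncated SK3 base it averaged 1.48 ± 0.372 CPM. Crebl2, a small bZIP protein gene, averaged 19.6 ± 2.90 CPM in DN-HCN2 base (n = 3) against 42.2 ± 2.13 CPM in control base (n = 4) (log2 change -1.11, SE 0.245, edgeR adjusted p = 0.0225). All its DN-HCN2 base libraries lay below those of control base, as did those of 9.03% of all genes tested. In the apex Crebl2 averaged 33.2 ± 11.5 CPM with DN-HCN2 and 29.1 ± 3.95 in control (n = 4 each), with overlap (log2 change 0.19, edgeR adjusted p = 0.824), and over both regions the log2 change was -0.46 (edgeR adjusted p = 0.0947). With truncated SK3, Crebl2 averaged 33.7 ± 4.18 CPM in the base and 38.9 ± 3.42 in the apex (n = 3 each) and was not called. In the base 4 of the 68 pathway genes were called with DN-HCN2, beside 2.14% of all genes tested. The Crebl2 call was kept in 4 of 7 fits that left out a library and was lost without the libraries rich in macrophage markers (-1.16, edgeR adjusted p = 0.177).

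Of 21 genes known as CREB targets, 2 were called higher and none lower with DN-HCN2 over both regions, beside 2.45% of all genes tested called higher. The log2 change was positive for 15 of the 21 and negative for 6, with a median of 0.40, beside 47.5% negative and a median of 0.03 over all genes tested. Genes with few counts enter these values on a par with the rest. Vgf, Pcsk1 and Npas4 averaged no more than 4.58 CPM in any group. Scg2 averaged 39.6 ± 67.3 CPM in DN-HCN2 base, with a median of 1.39 CPM over its 3 libraries. Egr1, an immediate early transcription factor gene, averaged 775.1 ± 181 CPM in DN-HCN2 base (n = 3) and 653.1 ± 278 in DN-HCN2 apex (n = 4), against 435.0 ± 76.1 and 353.9 ± 96.3 CPM (n = 4 each) in control base and apex. Its log2 change was 0.86 (SE 0.208, edgeR adjusted p = 0.0195), and that of Ier2, another immediate early gene, was 1.40 (SE 0.285, edgeR adjusted p = 0.00737). These genes answer many signals besides CREB. With truncated SK3 the call among these 21 was Nptx2, a secreted synaptic protein gene, which fell by 5.00 on the log2 scale (SE 0.597, edgeR adjusted p = 5.25e-05), while the median of the list was 0.35.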

How the data were processed

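Gene expression was measured in 21 Smart-seq2 libraries of spiral ganglion neurons from mice at postnatal day 7, grouped by virus and cochlear region as the titles give them (6 groups of 3 or 4). The authors deposited 1 table of read counts per gene symbol, whole numbers that were not normalized. Trimmomatic, HISAT2 and DESeq2, with the builds GRCm38 and mm10, are named per the submitters' processing notes, with no versions. The counter and annotation are not given in the sources used here. The members and gene lists were chosen with earlier results of these data known. A listed gene is not reported here.

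Genes passing filterByExpr were scaled with TMM. The test was the quasi-likelihood F test of edgeR 4.0.16 (robust setting, R 4.3.3) on all libraries, with a mean for each group. P-values were adjusted over 14968 genes (Benjamini-Hochberg), and genes were called at a false discovery rate of 0.05 in 10 comparisons. An effect over both regions is the mean of the regional effects, and standard errors follow from the F statistic. CPM are counts over TMM-scaled totals. The precision is limited by 3 or 4 libraries per group, and by the counts per library given for low genes.

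Alternatives were RLE size factors, no filter, a replicate block, only the libraries compared, DESeq2 1.42.0 and each library left out in turn. Chosen after seeing the data were leaving out the 2 libraries rich in macrophage markers, removing a trend on GC content and length (splines with 5 degrees of freedom, for 14455 genes matched to GENCODE M21) and averaging the regions over the 3 conditions. The rule for naming took all members, up to 4 called genes per list and comparison by smallest p, and the 3 genes most like each called member. The code was tested on simulated data. Tables and figures were made with Python 3.11.15, pandas 2.3.3, numpy 2.4.6 and matplotlib 3.10.9.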

Additional observations from a re-analysis of the deposited data

Results flagged for a closer look

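Among the 27 groups of 4 libraries examined, 9 genes in 3 groups, a single library lay far from the others in 5, and chance alone would give about 1 in 20. In DN-HCN2 apex, replicate 3 was highest for Calm3, at 718.6 CPM where the others had 253.5 to 328.5, and for Camk2g, at 223.4 CPM where the others had 146.0 to 152.4. In control apex, replicate 2 was highest for Calm3, at 337.5 CPM where the others had 305.7 to 310.4, and for Camk2b, at 58.43 CPM where the others had 47.3 to 48.5. In control base, replicate 1 was lowest for Camk2g, at 184.4 CPM where the others had 201.7 to 205.0. Replicate 3 of DN-HCN2 apex also had the highest sum of spiral ganglion neuron markers of all libraries, at 17792 CPM; the part of that in its Calm3 and Camk2g levels was not tested.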

How the results depend on the processing

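The 1 member called with DN-HCN2 over both regions, Creb1, was called under RLE size factors, without the filter, with only the libraries compared, with DESeq2 and in each fit that left out a library (count 1 throughout). The count was 0 without the libraries rich in macrophage markers and 0 with the GC content and length trend removed; the cause was not tested. In the base the count was 0, but 1 with DESeq2 (Creb1, log2 change -1.25, DESeq2 adjusted p = 0.017). DESeq2 called 543 genes higher and 558 lower there, against 126 and 194 with edgeR. The count in the base was between 0 and 1 when a library was left out. The 1 came without DN-HCN2 base replicate 1 (-1.58, edgeR adjusted p = 0.0374). With a replicate block Creb1 remained called (count 1; log2 change -1.05, edgeR adjusted p = 0.0296), and 602 genes were called in place of 906, against 1661 with DESeq2 and 475 without the libraries rich in macrophage markers. Deviations of apex and base libraries with the same number were compared within each condition. Their correlations were weak, from -0.0749 to 0.132 over 10 pairs, with 2 above 0.1. In 6 of 10 the correlation was highest with the library's own number. How often that would happen by chance was not worked out, so this check cannot decide whether the numbers mark pairs. The numbers were not taken as pairs in the main fit.

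Of 801 alternative values of 43 log2 changes, 722 kept direction and call, 38 lost the call, 2 gained it and 39 changed sign. The sign changes were of values not called. Without the libraries rich in macrophage markers Calm2 with DN-HCN2 was -0.12 and the Creb1 interaction 0.05587. With the GC content and length trend removed Calm2, Calm3 and Camk2d with DN-HCN2 were -0.05527, -0.001804 and 0.06563, Calm2 with truncated SK3 was -0.01308 and the Creb1 interaction with truncated SK3 0.09274. Calm2 with truncated SK3 was -0.001462 with the block and -0.004276 with only the libraries compared, and Creb1 in base minus apex was -0.16 averaged over the 3 conditions. Leaving out a library gave ranges across 0 for Calm3 (-0.07307 to 0.2317) and Crem (-0.1817 to 0.2466) with DN-HCN2, for Calm2 (-0.04773 to 0.02633), Camk2b (-0.02307 to 0.3221) and Camk2g (-0.1795 to 0.02001) with truncated SK3, for Creb1 in base minus apex of control (-0.1634 to 0.1273) and for the Creb1 interaction with truncated SK3 (-0.328 to 0.1239).

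With 3 or 4 libraries per group small changes of these genes could not be seen, and Camk2a, at no more than 85 counts in a library, is limited by depth.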
